A study of Saccharomyces cerevisiae with 4 samples.

Results

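The ergosterol and mevalonate pathway genes of budding yeast (Saccharomyces cerevisiae) were chosen by systematic name: the enzymes of both pathways, their electron donors, the sterol esterifying enzymes and the activators Upc2 and Ecm22. Of 30 listed genes, 28 had a row among the 6030 annotated transcripts, and ERG13 and ARE2 were not analysed here. The study measured newly made RNA, labelled for 6 min with 5 mM 4-thiouracil, in strain Y40343 with the genotype Ssl2-FRB::kanMX6. Cells were grown at 30 C in YPD, a rich glucose medium, to an OD600 of 0.8. Ssl2 is the DNA translocase of TFIIH, a general factor of RNA polymerase II, and in anchor-away strains rapamycin ties an FRB-tagged protein to an anchor that carries it out of the nucleus. The no rapa group and the with rapa group held 2 libraries each, and both carried the tag. The rapamycin dose and exposure were not given in the labels, and no untagged strain with rapamycin was among the samples, so effects of the drug and of the loss of nuclear Ssl2 cannot be told apart.

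Feature counts were 32435994 and 29318499 in the no rapa libraries and 11441998 and 12685769 in the with rapa libraries. Reads outside features were at most 33.7% of the total in the no rapa libraries and at most 50.5% in the others, and the part of this difference and of depth in the results was not tested. Levels are counts per 1000000 (CPM) with TMM scaling, a share of the counted RNA, so a change common to most genes is not seen, and fewer labelled cells and less RNA per cell cannot be told apart. Nothing in the labels ties the 2 libraries of a group to different cultures. The p-values therefore cover only library-to-library spread, possibly technical. Without rapamycin, 25 of the 28 pathway genes were higher in replicate 1 than in replicate 2, with a median log2 ratio of 0.29, whereas 52.6% of all 5707 features tested were, with a median of 0.02. With rapamycin, 16 of the 28 were higher in replicate 1.

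Ergosterol is the main sterol of fungal membranes. The mevalonate pathway builds isoprenoid units from acetyl-CoA, with HMG-CoA reductase as its main point of control, and joins them into farnesyl diphosphate (FPP). Squalene synthase commits FPP to sterols, squalene is closed into lanosterol, and a series of demethylations, isomerisations, desaturations and reductions turns lanosterol into ergosterol. Upc2 and Ecm22 are related zinc cluster activators that bind a sterol regulatory element in promoters of sterol genes.

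With rapamycin, 10 of the 28 pathway genes were higher, 3 were lower and 15 did not pass the test (edgeR's quasi-likelihood test at a threshold of 0.05, adjusted by Benjamini-Hochberg over all 5707 features). The FPP synthase gene ERG20 rose 2.29-fold and the sterol isomerase gene ERG2 2.24-fold. The HMG-CoA reductase gene HMG2 fell 2.63-fold, the activator gene ECM22 fell 2.35-fold and HMG1, the other reductase gene, fell 1.53-fold. Over all features, 46.0% passed the same test, 19.3% as higher and 26.7% as lower. Among the 4910 open reading frames tested, 17.5% were higher and 30.2% lower. The share of pathway genes that passed, 13 of 28, was thus near the background, while 35.7% were higher and 10.7% lower. The median log2 fold change of the 28 genes was 0.40, against -0.03 over all features and -0.14 over open reading frames. The 2 libraries of each group did not overlap for 18 of the 28 genes, 14 higher and 4 lower, while 74.2% of all features showed such a separation (34.1% higher and 40.1% lower).

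None of the 13 called genes changed sign under the 10 alternatives run, but the number of calls moved. Leaving out no rapa replicate 2 left ERG2 and ERG20 as the only higher calls among the 28, with HMG1, HMG2 and ECM22 still lower. Upper quartile scaling raised the median log2 fold change of all features by 0.32, turned their calls from 1101 higher and 1522 lower into 1706 higher and 961 lower, and gave 16 higher and 2 lower pathway genes. The median of the pathway genes lay 0.43 above that of all features under either scaling. Without no rapa replicate 2 the pathway median was 0.22 and its distance from that of all features 0.24.

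**Figure D1:**
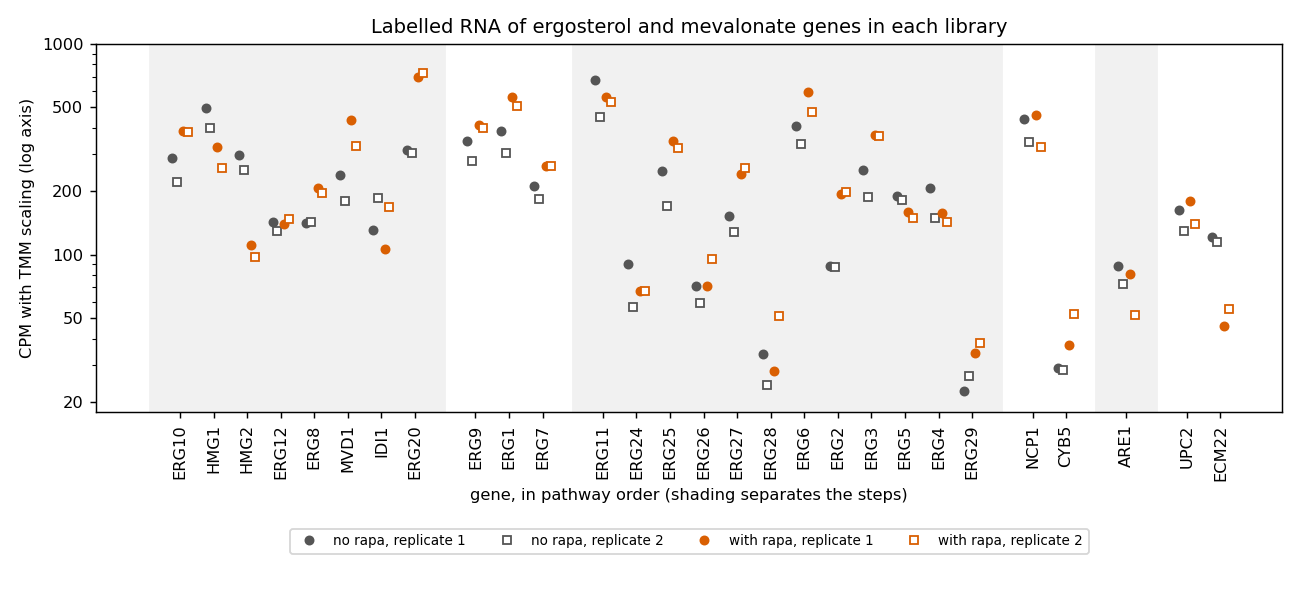
CPM with TMM scaling (log axis) of the 28 pathway genes in pathway order, with 1 point for each of the 4 libraries: grey for no rapa, orange for with rapa, filled for replicate 1 and open for replicate 2. The orange points of ERG20 and ERG2 lie well above the grey ones and those of HMG2 and ECM22 well below, while grey filled points lie above grey open points for 25 of 28 genes.

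Promoters from the R64 genome are shown for the genes whose windows hold a match to the sterol regulatory element and for those with the largest change in each step. Motifs were searched on both strands from 250 bases before to 50 after each annotated transcript start. The sterol regulatory element TCGTATA occurred in 5 of 28 pathway windows (17.9%; exact 95% interval 6.06 to 36.9%) and in 4.53% of all 4928 open reading frame windows. These were the windows of ERG2, ERG3, ERG8, ERG28 and CYB5, of which ERG28 did not pass the test (log2 fold change 0.46 ± 0.29, SE) and the other 4 genes were higher. Their median log2 fold change was 0.64, against 0.13 for the 23 genes without a match. ERG2, ERG28 and CYB5 have short transcripts (760, 611 and 635 bp), and the long genes HMG1, HMG2, UPC2 and ECM22 have no match. Over all open reading frames the median was 0.27 for transcripts under 1000 bp and -0.53 for those of 2500 bp or more. The part of length in this contrast was not tested. The TATA core TATAAA occurred in 19 of 28 windows (67.9%; 47.6 to 84.1%) against 45.2% of all windows, and the median log2 fold change was 0.41 with a match and 0.13 without. The consensus of the heme-responsive regulator Hap1 was in 0 of 28 windows, for which the exact interval reaches 12.3%, and in 0.122% of all. A match is a stretch of letters and not a measured binding site. For the sterol regulatory element only TCGTATA was searched, so a window without a match may still hold another form of the element.

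The 250 bases before the start are shown for the 5 genes with a TCGTATA match, 5′ to 3′ on the gene's strand. Matches of TCGTATA and TATAAA on either strand are in capitals (TATACGA and TTTATA are their reverse complements). The stretches are chrXIII:667262-667511 on the plus strand for ERG2, chrXII:253533-253782 (plus) for ERG3, chrXIII:712056-712305 (plus) for ERG8, chrV:238056-238305 (minus) for ERG28 and chrXIV:417334-417583 (minus) for CYB5. The ERG2 match began 160 bases before the start, that of ERG8 142, that of ERG28 239 and that of CYB5 244, and ERG3 held matches that began 248 and 208 bases before its start.
ERG2: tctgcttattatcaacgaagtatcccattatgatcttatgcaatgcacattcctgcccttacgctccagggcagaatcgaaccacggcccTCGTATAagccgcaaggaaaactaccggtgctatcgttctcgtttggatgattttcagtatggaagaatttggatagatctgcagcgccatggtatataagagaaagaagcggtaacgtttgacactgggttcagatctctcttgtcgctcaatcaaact
ERG3: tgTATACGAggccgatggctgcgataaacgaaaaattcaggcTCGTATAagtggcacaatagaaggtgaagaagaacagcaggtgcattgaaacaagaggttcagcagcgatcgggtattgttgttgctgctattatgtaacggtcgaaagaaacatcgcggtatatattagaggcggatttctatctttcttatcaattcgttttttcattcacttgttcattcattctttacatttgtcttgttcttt
ERG8: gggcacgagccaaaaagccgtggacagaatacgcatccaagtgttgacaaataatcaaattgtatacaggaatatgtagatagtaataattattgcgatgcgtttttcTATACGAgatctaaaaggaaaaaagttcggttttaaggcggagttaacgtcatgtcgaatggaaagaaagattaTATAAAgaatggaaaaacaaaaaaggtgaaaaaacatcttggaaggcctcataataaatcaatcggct
ERG28: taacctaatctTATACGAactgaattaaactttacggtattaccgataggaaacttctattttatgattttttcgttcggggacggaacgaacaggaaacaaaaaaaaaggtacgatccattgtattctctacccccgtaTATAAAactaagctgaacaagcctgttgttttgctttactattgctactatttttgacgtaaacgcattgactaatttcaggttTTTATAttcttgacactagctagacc
CYB5: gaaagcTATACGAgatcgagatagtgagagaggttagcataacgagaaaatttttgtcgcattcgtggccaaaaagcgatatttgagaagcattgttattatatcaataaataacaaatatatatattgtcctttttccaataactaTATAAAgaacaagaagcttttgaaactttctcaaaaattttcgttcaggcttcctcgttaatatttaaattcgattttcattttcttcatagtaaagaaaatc

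The same stretch is shown for genes with a large change and no TCGTATA match in the window: ERG20 and ERG1, which were higher, and HMG2 and ECM22, which were lower. They lie at chrX:104708-104957 (plus), chrVII:848451-848700 (minus), chrXII:1032194-1032443 (plus) and chrXII:602667-602916 (minus). ERG20 has a TATA core that begins 75 bases before the start, and ECM22 a match on the opposite strand that begins 87 bases before it. HMG2 and ERG1 have no match to either motif.
ERG20: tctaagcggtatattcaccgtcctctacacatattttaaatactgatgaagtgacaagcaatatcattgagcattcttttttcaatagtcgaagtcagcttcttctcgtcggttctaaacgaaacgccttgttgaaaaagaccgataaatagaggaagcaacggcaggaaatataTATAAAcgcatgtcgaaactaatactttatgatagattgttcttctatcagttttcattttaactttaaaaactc
ERG1: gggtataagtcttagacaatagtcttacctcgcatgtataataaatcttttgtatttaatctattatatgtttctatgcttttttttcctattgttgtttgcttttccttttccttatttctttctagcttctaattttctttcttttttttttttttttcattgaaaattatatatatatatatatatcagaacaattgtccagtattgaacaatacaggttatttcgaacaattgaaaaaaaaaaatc
HMG2: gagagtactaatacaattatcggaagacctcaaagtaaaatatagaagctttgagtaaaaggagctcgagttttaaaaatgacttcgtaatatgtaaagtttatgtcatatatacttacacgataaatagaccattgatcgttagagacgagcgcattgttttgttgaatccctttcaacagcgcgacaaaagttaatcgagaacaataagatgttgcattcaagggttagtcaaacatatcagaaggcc
ECM22: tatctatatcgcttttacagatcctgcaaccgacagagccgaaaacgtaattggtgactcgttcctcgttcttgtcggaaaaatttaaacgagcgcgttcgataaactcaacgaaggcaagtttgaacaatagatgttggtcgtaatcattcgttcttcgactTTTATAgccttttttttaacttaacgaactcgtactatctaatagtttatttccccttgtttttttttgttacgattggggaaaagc

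**Figure D2:**
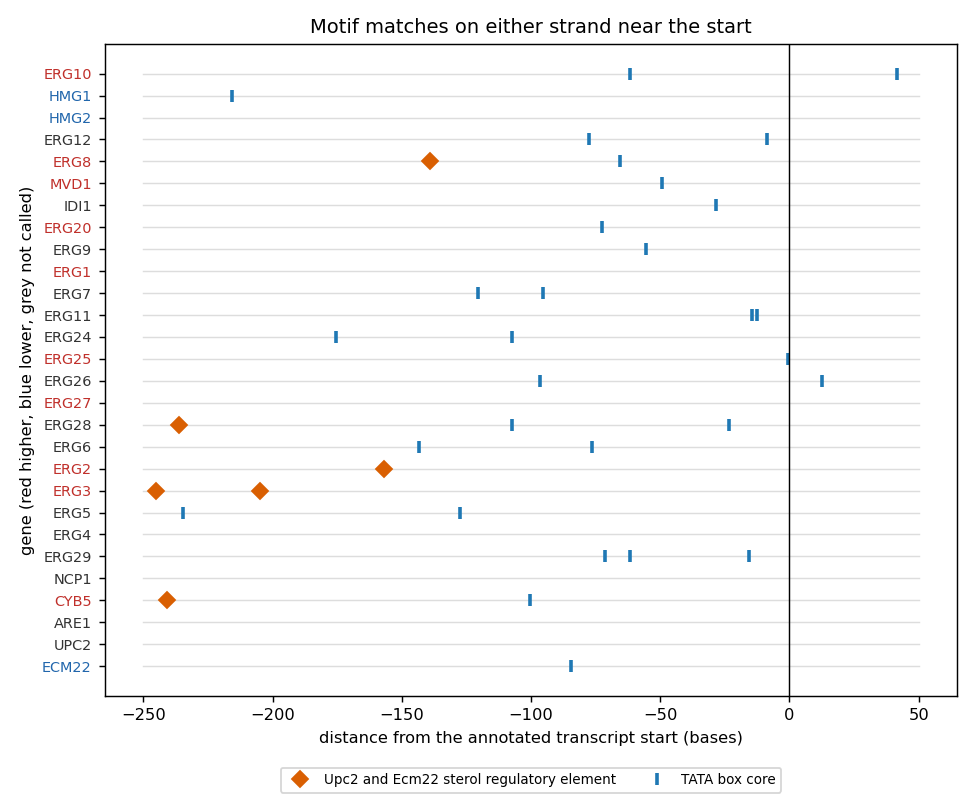
Positions of matches to the sterol regulatory element (orange diamonds) and the TATA core (blue ticks), on either strand, in bases from the annotated transcript start of each of the 28 genes in pathway order. Matches to TCGTATA lie between 248 and 136 bases before the start in 5 genes, and names in red were higher, in blue lower and in grey not called.

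The mevalonate steps moved in opposite directions. Of 8 genes measured from acetoacetyl-CoA to FPP, 4 were higher, 2 lower and 2 uncalled, beside 19.3% higher and 26.7% lower of all features. Their median log2 fold change was 0.29 and the range -1.39 to 1.20. Both lower genes encode HMG-CoA reductase, the enzyme that makes mevalonate. Their transcripts are longer than 2500 bp. Of all open reading frame transcripts of 2500 bp or more, 52.9% were lower, with a median log2 fold change of -0.53. HMG2 (YLR450W, chromosome XII, 1032444 to 1035853 on R64) measured 296 and 254 CPM without rapamycin and 111 and 97.9 with it. Every with rapa value lay below every no rapa value, and the log2 fold change was -1.39 ± 0.17 (SE; adjusted p = 5.74e-05, edgeR quasi-likelihood test). HMG1 (YML075C, XIII, 115582 to 118976) measured 496 and 398 CPM without rapamycin and 325 and 258 with it. Its groups did not overlap either, and it fell by 0.62 ± 0.20 on the log2 scale (adjusted p = 0.0238). That call was lost without no rapa replicate 1 and without with rapa replicate 2, and under both other scalings.

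The reductase genes were also compared within each library. The HMG2 count was 0.596 and 0.637 of the HMG1 count in the libraries without rapamycin and 0.342 and 0.379 in those with it, a ratio that needs no scaling between libraries. The groups did not overlap, and the log2 ratio went from -0.70 ± 0.07 to -1.47 ± 0.10 (SD, n = 2), a difference of -0.78. The exact two-sided permutation p was 0.333, the smallest that 2 libraries against 2 can give, and 0.333 after Benjamini-Hochberg adjustment over the 2 pairs tested. The reductases are paralogs, and the sources used here do not give how reads common to both were counted. The antisense transcript SUT713, which lies wholly under HMG2, had 44 and 6 counts without rapamycin and 19 and 75 with it. The HMG2 counts were 8911, 7453, 1231 and 1380 in the same order. After scaling, SUT713 measured 1.46 and 0.204 CPM without rapamycin and 1.72 and 5.32 with it. It was uncalled (log2 fold change 2.08 ± 0.93, SE; adjusted p = 0.0873, edgeR).

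The last gene of the mevalonate steps had the largest rise of the 28. ERG20 (YJL167W, X, 104958 to 106187), whose product FPP feeds sterols, dolichol, ubiquinone and protein prenylation, measured 315 and 305 CPM without rapamycin and 698 and 724 with it. Both with rapa libraries were over both no rapa libraries, and the log2 fold change was 1.20 ± 0.19 (SE; adjusted p = 0.000338, edgeR). It was called under every alternative run. Counted per kilobase of transcript, ERG20 went from 252 to 578 CPM per kb and from rank 3 to rank 1 of the 28 genes. MVD1 (YNR043W, XIV, 701875 to 703232), the mevalonate diphosphate decarboxylase gene, measured 240 and 179 CPM without rapamycin and 436 and 327 with it. It was higher by a log2 fold change of 0.86 ± 0.21.

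Smaller changes were seen at the thiolase and kinase steps. ERG10 (YPL028W, XVI, 498032 to 499388), the acetoacetyl-CoA thiolase gene that opens the pathway, measured 289 and 221 CPM without rapamycin and 384 and 382 with it (0.59 ± 0.19, adjusted p = 0.0225, edgeR). The phosphomevalonate kinase gene ERG8 (YMR220W, XIII, 712306 to 713919) measured 141 and 143 CPM and then 208 and 195 CPM (0.51 ± 0.16, adjusted p = 0.0198). Neither gene's groups overlapped. The ERG8 call was lost without either no rapa library, at log2 fold changes of 0.48 without replicate 1 and 0.51 without replicate 2. ERG12, the mevalonate kinase gene, stayed uncalled at 136 ± 8.86 and 144 ± 5.36 CPM (SD, n = 2). IDI1, the isomerase gene, was uncalled as well, with 131 and 185 CPM without rapamycin and 107 and 168 with it. For IDI1 the replicates of each group differed more than the group means did.

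**Figure D3:**
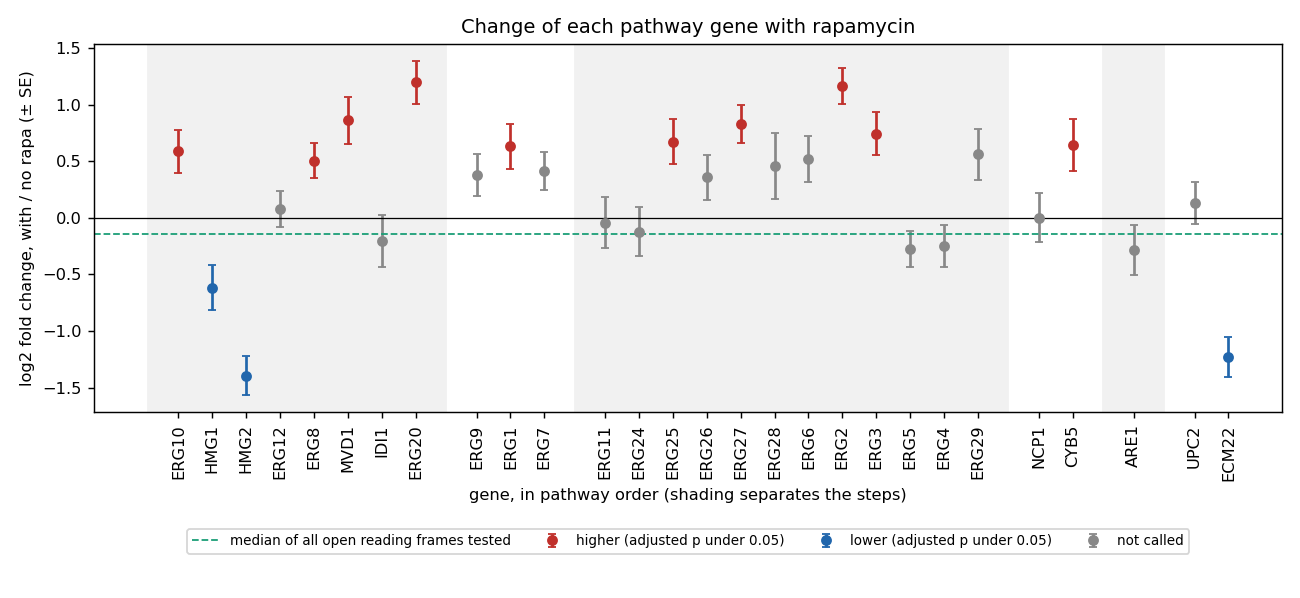
Log2 fold change of with rapa over no rapa (± SE, edgeR) for the 28 genes in pathway order, red where higher, blue where lower and grey where not called. The dashed line is the median of all open reading frames tested, -0.14. HMG1 and HMG2 stand below it among the mevalonate steps and ERG20 far above it, while the 12 genes after lanosterol lie between -0.28 and 1.16.

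All 3 genes from FPP to lanosterol had higher values with rapamycin in both libraries, and the test passed for 1 of them. Of all features, 74.2% had groups that did not overlap (34.1% higher), and 46.0% passed the test (19.3% higher). ERG1 (YGR175C, VII, 846764 to 848450), the squalene epoxidase gene and the target of allylamine antifungals, measured 387 and 304 CPM without rapamycin and 561 and 508 with it. Its log2 fold change was 0.63 ± 0.20 (SE; adjusted p = 0.0205, edgeR). The call was lost without either no rapa library. ERG9, the squalene synthase gene, measured 347 and 277 CPM and then 413 and 398 CPM (0.38 ± 0.19, adjusted p = 0.114). ERG7, the lanosterol synthase gene, measured 213 and 185 CPM and then 264 and 265 CPM (0.41 ± 0.17, adjusted p = 0.0612).

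After lanosterol, 4 of 12 genes were higher, 0 lower and 8 uncalled, beside 19.3% higher and 26.7% lower of all features. At an unadjusted p under 0.05 edgeR gave 6 higher and 0 lower, and DESeq2 gave 5 higher and 0 lower after adjustment. Over all features, 3046 of 5707 had an unadjusted p under 0.05 in edgeR. DESeq2 called 1211 higher and 1330 lower of 5916. The median log2 fold change was 0.49 and the range -0.28 to 1.16. ERG2 (YMR202W, XIII, 667512 to 668271) encodes the isomerase that moves the ring double bond. It had 88.3 and 87.3 CPM without rapamycin and 195 and 198 with it, and its replicates lay close together in both groups. The log2 fold change was 1.16 ± 0.16 (SE; adjusted p = 0.000108, edgeR), and the call held under every alternative run. ERG3 (YLR056W, XII, 253783 to 255085), which encodes the sterol desaturase that acts next, measured 253 and 187 CPM without rapamycin and 371 and 367 with it. It was higher by 0.74 ± 0.19 on the log2 scale (adjusted p = 0.00719).

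The other higher calls lay in the complex that removes methyl groups from the sterol ring. ERG27 (YLR100W, XII, 341783 to 342933), the ketoreductase gene, measured 153 and 128 CPM without rapamycin and 242 and 258 with it (0.83 ± 0.17, adjusted p = 0.00173, edgeR). ERG25 (YGR060W, VII, 610481 to 611510), the methyl oxidase gene, measured 250 and 170 CPM and then 348 and 323 CPM (0.67 ± 0.20, adjusted p = 0.0168). Neither gene's groups overlapped. ERG26, the decarboxylase gene of the same complex, had overlapping groups, with 70.9 and 58.7 CPM and then 70.8 and 95.2 CPM (0.36 ± 0.20, adjusted p = 0.155). ERG28, whose product tethers the complex, went from 28.9 ± 6.83 to 39.6 ± 16.2 CPM (SD, n = 2) and was uncalled. ERG29, a gene linked to the methyl oxidase step, went from 24.5 ± 2.74 to 36.1 ± 2.65 CPM (SD, n = 2) without overlap (0.56 ± 0.23, adjusted p = 0.0598).

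The azole target and the last reductions did not pass the test. ERG11, the lanosterol demethylase gene, measured 677 and 449 CPM without rapamycin, which enclosed the 559 and 532 CPM with it (-0.04 ± 0.23, SE). Its sign changed under 6 of 10 alternatives. ERG24, the reductase gene of the next step, measured 90.1 and 56.3 CPM and then 67.1 and 67.5 CPM. ERG6, the sterol methyltransferase gene, had the highest level per kilobase of the 28 genes without rapamycin, 291 CPM per kb, and 419 with it. It measured 409 and 334 CPM and then 595 and 473 CPM, which gave 0.52 ± 0.20 on the log2 scale (adjusted p = 0.0521, edgeR's test), and passed under 6 of 10 alternatives. ERG5, the second P450 gene of the pathway, measured 191 and 183 CPM and then 159 and 150 CPM (-0.28 ± 0.16, adjusted p = 0.169). ERG4, which encodes the final reductase, measured 178 ± 41.0 and 150 ± 10.6 CPM (SD, n = 2) and its groups overlapped.

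Early and late steps were set side by side by their summed levels, with no test of the difference. The summed CPM of the 8 mevalonate genes was 2050 and 1816 without rapamycin and 2410 and 2301 with it, and that of the 12 late genes 2446 and 1853, then 2827 and 2695. The ratio of early to late was 0.838 and 0.980 without rapamycin and 0.852 and 0.854 with it, so the groups overlapped. Without HMG1 and HMG2, a choice made after their values were seen, it was 0.514 and 0.629, then 0.698 and 0.721, and the groups did not overlap. The other 6 mevalonate genes had a median log2 fold change of 0.55, against 0.49 for the late genes. All 3 classes of enzyme together comprised 23 genes, of which 9 were higher, 2 lower and 12 uncalled. The 11 called of 23 were near the background, as 46.0% of all features were called (19.3% higher and 26.7% lower).

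Of the 2 electron donor genes of the P450 and desaturase steps, 1 was higher and 1 uncalled, and the difference between them was not tested. CYB5 (YNL111C, XIV, 416699 to 417333), which encodes a cytochrome that passes electrons to sterol and lipid desaturases, measured 29.1 and 28.3 CPM without rapamycin and 37.3 and 52.4 with it. Its log2 fold change was 0.64 ± 0.23 (SE; adjusted p = 0.0355, edgeR), and the call was lost without any of 3 of the 4 libraries. NCP1, the P450 reductase gene, measured 441 and 342 CPM and then 458 and 326 CPM, and its group means were both 392 CPM. ARE1, which encodes a sterol acyltransferase for storage esters, had overlapping groups with 88.4 and 72.6 CPM and then 80.9 and 51.6 CPM.

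Of the paired activators, ECM22 was lower and UPC2 was uncalled. ECM22 (YLR228C, XII, 599800 to 602666) measured 122 and 115 CPM without rapamycin and 45.8 and 55.1 with it, with no overlap. The log2 fold change was -1.23 ± 0.18 (SE; adjusted p = 0.000159, edgeR), and it was lower under every alternative run. UPC2 (YDR213W, IV, 889537 to 892532) measured 163 and 129 CPM and then 181 and 140 CPM (0.13 ± 0.19, adjusted p = 0.591). Within a library the UPC2 count was 1.34 and 1.12 times the ECM22 count without rapamycin and 3.95 and 2.53 times with it. The log2 ratio went from 0.29 ± 0.18 to 1.66 ± 0.45 (SD, n = 2), with an exact two-sided permutation p of 0.333, the smallest possible, and the same value after adjustment over the 2 pairs.

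**Figure D4:**
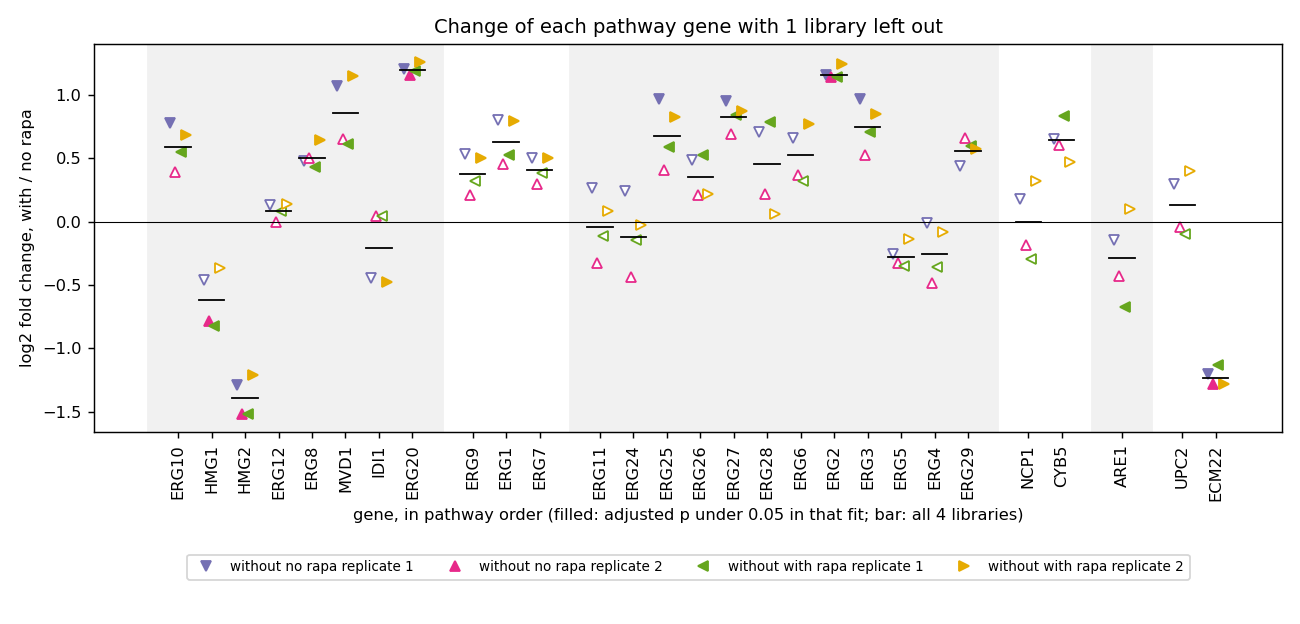
Log2 fold change of each of the 28 genes with 1 library left out in turn, filled where the adjusted p was under 0.05 in that fit and open where not, with a black bar for the fit on all 4 libraries. HMG2, ECM22, ERG20 and ERG2 are filled in all 4 fits, whereas most late genes are open without no rapa replicate 2 (upward triangles).

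The genes that fell had long transcripts. HMG2, HMG1, UPC2 and ECM22 are the longest of the 28, at 3410, 3395, 2996 and 2867 bp, and 3 of these 4 were lower. Of all 698 open reading frame transcripts of 2500 bp or more, 52.9% were lower and 9.46% higher, with a median log2 fold change of -0.53. The medians of the 4 long pathway genes and of these transcripts were -0.92 and -0.53. Among transcripts from 1000 to under 2000 bp, 8 of 16 pathway genes were higher and 8 uncalled, against 381 higher and 29.5% lower of all 2246. From 2000 to under 2500 bp, 4 of 4 pathway genes were uncalled, 1 of them with an unadjusted p under 0.05, while 52.4% of 611 transcripts were lower. Under 1000 bp, 2 of 4 were higher, against 26.5% of 1355. Across the 28 genes the log2 fold change correlated with log2 length at Pearson's r = -0.68 (Spearman's rho -0.67), and across the 4910 open reading frames at -0.34. Without the 4 longest genes, r over the other 24 was -0.48 (rho -0.54). These genes share the same 4 libraries and are not independent. The part of length in the falls of HMG1, HMG2 and ECM22 was not tested.

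**Figure D5:**
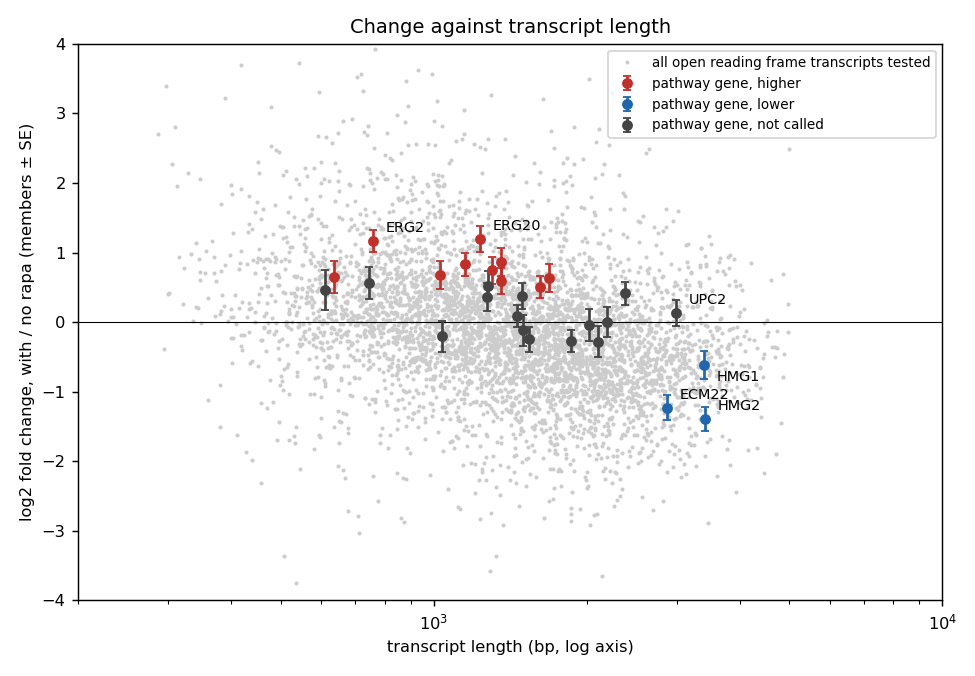
Log2 fold change against transcript length (log axis) for all open reading frame transcripts tested (small grey points; 10 lie outside the axes) and for the 28 pathway genes (large points ± SE, red higher, blue lower, dark grey not called). The blue points HMG1, HMG2 and ECM22 lie at 2867 bp and beyond, among grey points that mostly lie below 0.

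Genes around the pathway were measured in the same fit, from 7 lists with 68 of 81 listed genes tested. In all 9 were higher, 27 lower and 32 uncalled, with a median log2 fold change of -0.33. Beside these counts, 17.5% of all open reading frames were higher and 30.2% lower, with a median of -0.14. Whether any list differed from that background was not tested. Of 11 isoprenoid branch genes, which use FPP and its relatives, 1 was higher, 7 lower and 3 uncalled (median -0.57). They included CAX4, a dolichyl diphosphate phosphatase gene, at 85.3 ± 9.39 and 29.6 ± 1.64 CPM (SD, n = 2), and BTS1, the geranylgeranyl diphosphate synthase gene (-1.15 ± 0.26, SE). COX10, for heme A synthesis, and the dolichol synthesis gene RER2 were also lower (-0.83 ± 0.22 and -0.77 ± 0.22). Of 4 other regulators of sterol genes, 3 were lower and 1 uncalled. ROX1, the repressor of hypoxic genes, went from 1260 ± 234 to 321 ± 41.6 CPM, and SUT2 (-1.16 ± 0.23) and SUT1 (-0.86 ± 0.27) fell as well.

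Partners of the enzymes went both ways, beside 17.5% higher and 30.2% lower of all open reading frames. Of 11 heme and cytochrome genes, 2 were higher, 6 lower and 3 uncalled (median -0.51). CBR1, whose reductase feeds electrons to Cyb5, rose from 85.4 ± 6.15 to 253 ± 36.1 CPM (SD, n = 2; log2 fold change 1.56 ± 0.17, SE). The first heme synthesis gene HEM1 (-1.35 ± 0.20), HEM12 (-0.85 ± 0.18) and DAP1, whose heme protein supports Erg11 (-1.32 ± 0.25), were lower. Of 14 genes for the turnover of pathway enzymes, 1 was higher, 3 lower and 10 uncalled (median 0.05, while the mean was -0.18). HRD1, the ubiquitin ligase gene for Hmg2 protein, fell from 127 ± 6.07 to 43.7 ± 1.90 CPM, and its partner gene HRD3 (-0.60 ± 0.17) and the ligase gene SSM4 (-1.05 ± 0.21) were lower too. CDC48, the segregase gene, was higher (0.75 ± 0.27).

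Of 19 sterol storage and transport genes, 3 were higher, 8 lower and 8 uncalled (median -0.38), beside 17.5% higher and 30.2% lower of all open reading frames. Lower were PRY3 (-1.27 ± 0.18), PDR16 (-1.20 ± 0.20) and the oxysterol-binding protein gene OSH6 (94.7 ± 13.9 and then 47.4 ± 3.43 CPM, SD, n = 2), and SAY1, the sterol deacetylase gene, was higher (1.34 ± 0.25). Only 3 of 8 sterol uptake and anaerobic cell wall genes were tested, and TIR1 was higher, from 1.73 ± 0.09 to 6.49 ± 0.353 CPM (SD, n = 2). Of 6 acetyl-CoA supply genes 1 was higher, the acetyl-CoA synthetase gene ACS1, from 7.74 ± 1.37 to 18.7 ± 6.93 CPM, and 5 were uncalled (median 0.80).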

How the data were processed

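The authors deposited raw read counts for each annotated transcript of 4 libraries. The submitters' processing notes name STAR 2.3.0, SAMtools and HTSeq, with builds sacCer3 and R64, in no stated role or order. For alignment filters and strand setting, nothing is given in the sources used here. Deposited transcripts enclosed the R64 reading frame of all 28 genes. Rows naming no feature were left out (no feature, 33.1 to 50.5% of reads; ambiguous, at most 0.0930%). Replicates differed beyond counting noise (chi-square per degree of freedom 80.4 and 65.7).

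The counts of 5707 features were fitted in edgeR 4.0.16 (R 4.3.3) after filterByExpr and TMM. Groups were compared by the quasi-likelihood F-test, two-sided, with Benjamini-Hochberg adjustment at 0.05. Each SE was computed as |log2 fold change| / sqrt(F). The script was tested on simulated data. Alternatives were DESeq2 1.42.0, 2 other scalings, no filter, open reading frames alone, a replicate block and leaving out each library. All 28 genes are named, with up to 4 called genes of each other list by smallest adjusted p. The genes and lists were chosen with earlier results of these data known. The planned ratio of ARE1 to ARE2 was not run because ARE2 was not analysed here.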

Additional observations from a re-analysis of the deposited data

How the results depend on the processing

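Each gene's call was compared under 10 alternatives. Of the 13 called genes, 0 reversed and 4 (ERG20, ERG2, HMG2 and ECM22) were called under all 10. Of the 15 uncalled genes, 9 were called under some alternative and 8 changed sign under some. Over the fits that left out 1 library, called features ranged from 1588 to 3312, called pathway genes from 5 to 17, higher ones from 2 to 13, mevalonate genes called from 3 to 6, late genes called from 1 to 7, called genes of the other lists from 23 to 40, and the late median log2 fold change from 0.30 to 0.58. The low ends for pathway, mevalonate and late genes came without no rapa replicate 2. Such fits leave a single library in a group, which is assumed to vary like the other group. With upper quartile scaling, which shifted all features by 0.32, 16 pathway genes were higher, 7 late genes were called, and the medians were 0.61 for mevalonate and 0.82 for late genes. Open reading frames alone shifted them by 0.12. Of features that overlap no other, chosen after seeing the data, 1317 of 2760 and 8 of 17 pathway genes were called. Replicate numbers are only shared names here: with 2 numbers, deviations correlated at 0.23, and the replicate block gave 17 called pathway genes against 13.

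Log2 fold changes that changed sign were all of uncalled genes, and the cause was not tested. With upper quartile scaling they were 0.12 for IDI1, 0.28 for ERG11, 0.20 for ERG24, 0.039 for ERG5, 0.068 for ERG4 and 0.024 for ARE1. ERG11 was at 0.027 with DESeq2, 0.032 with its size factors and 0.081 with open reading frames alone, which put ERG24 at 0.0051. NCP1 was at -0.023 with no filter and -0.0083 with the replicate block. Leaving out 1 library gave -0.47 to 0.049 for IDI1, -0.32 to 0.27 for ERG11, -0.44 to 0.25 for ERG24, -0.30 to 0.32 for NCP1, -0.67 to 0.10 for ARE1 and -0.10 to 0.40 for UPC2. The TATA core share was 64.3% with 300 bases before the start, and the other motif counts did not move. With 2 libraries a group, the exact test of a single ratio cannot fall under 0.333.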

Other observations

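Transcripts beside the pathway genes were measured in the same fit, in which 46.0% of all features were called. Of 11 transcripts that start within 500 bases of a pathway gene on the opposite strand, 7 were tested, and 1 was higher, 2 lower and 4 uncalled. SET2, a histone methyltransferase gene divergent from ERG20, measured 316 and 312 CPM without rapamycin and 172 and 131 with it (log2 fold change -1.05 ± 0.18, SE), while ERG20 rose. PDR1, a drug resistance regulator gene divergent from ERG4, measured 447 and 414 CPM and then 177 and 180 CPM (-1.27 ± 0.17), while ERG4 was uncalled. BUD23, divergent from ARE1, was higher (0.66 ± 0.22). RAD14, divergent from ERG2, measured 31.4 ± 2.38 and 36.7 ± 5.60 CPM (SD, n = 2) and was uncalled. SET2 and PDR1 have transcripts of more than 2500 bp, and 52.9% of open reading frame transcripts of 2500 bp or more were lower. The part of length and the differences between partners were not tested.

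Of 10 tested transcripts that overlap a pathway gene on the opposite strand, 4 were higher and 6 uncalled. Beside these, 19.3% of all features were higher and 26.7% lower. The 10 transcripts include both noncoding transcripts and open reading frames, and whether they differ from the background was not tested. Their counts ranged from 0 for SUT331 to 6271 for HCH1, which overlaps ERG24. SUT819, which overlaps 89 bases of the ERG10 transcript, had 23 and 29 counts without rapamycin and 131 and 88 with it, or 0.764, 0.986, 11.8 and 6.24 CPM (log2 fold change 3.36 ± 0.62). SUT331, which overlaps 110 bases of CYB5, had 0 and 0 counts and then 8 and 8. Against a floor of 3 counts over the no rapa group it was at least 12.6-fold higher. SUT331 passed the filter only through the with rapa libraries, so it could only be called higher or stay uncalled. Its place among the 4 higher transcripts is therefore no separate evidence. YMR209C, which overlaps ERG12, was higher by 0.80 ± 0.19 on the log2 scale. YHR071C-A, which overlaps ERG7, had 19 and 22 counts and then 24 and 46, or 0.631, 0.748, 2.17 and 3.26 CPM. It was higher, with an adjusted p near the threshold (log2 fold change 1.97 ± 0.75, adjusted p = 0.0488, edgeR).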
